A study of Mus musculus with 6 samples.

Results

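The Fc gamma and TREM receptors of macrophages were followed through the transcripts of 9 genes, chosen by name from the 54532 genes of the deposited table. They are the Fc gamma receptor genes Fcgr1, Fcgr2b, Fcgr3 and Fcgr4, the adaptor genes Fcer1g and Tyrobp, and the TREM genes Trem1, Trem2 and Trem3. All 9 were found, each as 1 row. The RNA-seq libraries came from peritoneal macrophages of WT C57BL/6J mice, males of 6 to 8 weeks, collected 5 days after an injection of 3% thioglycolate, which draws macrophages into the peritoneal cavity. Control cells were untreated. LPS, a component of the outer membrane of Gram-negative bacteria, was given to Model cells at 500 ng/mL for 5.5 h, and 2 mM ATP, the signal that activates the primed NLRP3 inflammasome, was then given for 0.5 h. In MUS, 50 uM muscone, a macrocyclic ketone, was added to the LPS and ATP treatment 0.5 h before ATP. Each group had 2 libraries, and the labels give the replicate number as the batch. Since no source says whether the libraries of a group came from separate cultures or mice, p-values measure only the spread between these libraries, which may be technical.

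Fc gamma receptors bind the constant part of IgG and let a macrophage take up antibody-coated particles. Fcgr1, Fcgr3 and Fcgr4 encode activating receptors that pair with the common gamma chain encoded by Fcer1g, whose tyrosine motif (ITAM) recruits the kinase Syk, whereas Fcgr2b encodes the inhibitory receptor, whose own motif (ITIM) recruits the phosphatase encoded by Inpp5d. Trem1, Trem2 and Trem3 encode receptors that signal through the ITAM of the adaptor DAP12, encoded by Tyrobp. TREM1 is known for amplifying inflammatory responses, and TREM2 binds lipids and apolipoproteins and restrains inflammatory output in many macrophages.

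Gene positions follow the mouse build GRCm38. Of the members, 4 lie together on chromosome 1, in the order Fcgr2b (170958617 to 170976547, minus strand), Fcgr4 (171018920 to 171029761, plus strand), Fcgr3 (171051174 to 171064935, minus strand) and Fcer1g (171229572 to 171234365, minus strand). Fcgr1 lies apart on chromosome 3 (96282909 to 96293969, minus strand) and Tyrobp on chromosome 7 (30413760 to 30417585, plus strand). The TREM genes are neighbours on the plus strand of chromosome 17, in the order Trem1 (48232768 to 48246924), Trem3 (48247777 to 48258841) and Trem2 (48346401 to 48354147).

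The promoters shown are those of Fcgr1 and Fcgr4, the members with the largest fold changes among the 7 tested in Model vs. Control. The sequences are RefSeq's, on GRCm38.p6, and run 5′ to 3′ over the 250 bases before the start site. Capitals in Fcgr1, chr3:96293970-96294219 on the minus strand, mark a GAS motif (TTCNNNGAA) 109 to 101 bases before the start and, on the other strand, a PU.1 core (GAGGAAG, read here as its complement) 56 to 50 bases before it. Capitals in Fcgr4, chr1:171018676-171018925 on the plus strand, mark an ISRE core (GAAA, any 2 bases, GAAA, bound by interferon regulatory factors) 73 to 64 bases before the start and a PU.1 core on the other strand 23 to 17 bases before it.
Fcgr1: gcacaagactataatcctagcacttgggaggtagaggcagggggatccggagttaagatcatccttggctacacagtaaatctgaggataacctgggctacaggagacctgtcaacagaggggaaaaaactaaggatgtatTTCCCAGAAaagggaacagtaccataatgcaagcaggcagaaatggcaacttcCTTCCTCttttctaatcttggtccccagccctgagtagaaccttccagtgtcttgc
Fcgr4: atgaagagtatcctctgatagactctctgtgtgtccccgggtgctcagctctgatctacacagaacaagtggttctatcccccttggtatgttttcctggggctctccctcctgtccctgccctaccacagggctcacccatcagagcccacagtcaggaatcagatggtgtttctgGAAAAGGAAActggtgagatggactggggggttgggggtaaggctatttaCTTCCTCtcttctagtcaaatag
All 3 motifs were searched on both strands. The GAS motif was in 7.01% of 32817 RefSeq promoters of the same length, the ISRE core in 2.97% and the PU.1 core in 10.6%. RefSeq promoters were matched for 7 of the 9 members, not for Tyrobp and Trem3. The PU.1 core was also before Fcgr3 and Trem2 and the GAS motif before Trem1, while the windows of Fcgr2b and Fcer1g held none of the 3. A match is a description of letters, binding was not measured, and a part of the motifs in the fold changes was not tested.

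Fcgr2b and Fcgr3 share sequence, which bears on how their reads are told apart. Their longest shared coding run is 129 bases and spans exons 3 and 4 of both genes, at chr1:170967980-170968081 and chr1:170966674-170966700 in Fcgr2b and at chr1:171057691-171057792 and chr1:171054167-171054193 in Fcgr3. It is shown on the minus strand, in the direction of transcription.
Fcgr2b and Fcgr3: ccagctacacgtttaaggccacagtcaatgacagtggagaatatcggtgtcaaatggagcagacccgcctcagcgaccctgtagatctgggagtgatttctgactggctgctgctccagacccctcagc
Of the 50-base stretches of Fcgr3 transcripts, 9.58% were shared, all with Fcgr2b. Of those of Fcgr2b, 2.92% were shared with Fcgr3 and 6.95% with any other gene, Fcgr3 included, whereas the other 7 members shared none. How reads from shared stretches were assigned was not examined, so these shares do not measure the error in the values of Fcgr2b and Fcgr3. Gm38204, an antisense gene over Fcgr2b, was between 0 and 0.834 FPKM, and its reads cannot be told apart from those of Fcgr2b without strand, which no source states.

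Levels are given as FPKM, a fragment count scaled by transcript length and library size, so that genes of different length can be compared. The fragments behind each value could be recovered from the table, with 15526321 to 17135442 on genes per library. Model replicate 1 had 24906 genes above 0 FPKM, against 17406 to 19200 in the other libraries. The part of this difference in the results below was not tested. The members spanned from 0.0440 FPKM, 1 fragment, for Trem3 in Control replicate 1 to 674 FPKM, 10286 fragments, for Tyrobp in the same library. All 7 macrophage markers had a mean of at least 1 FPKM, with Lyz2 at 7275 to 12007 FPKM. Markers of B cells, T and NK cells, mast cells, eosinophils and dendritic cells summed to at most 2.18 FPKM per library in each list, and none of their genes reached a mean of 1 FPKM. The 7 neutrophil markers summed to between 52.6 and 53.4 FPKM in Control, against 159 and 132 FPKM for the Model libraries and 121 and 119 FPKM for MUS, of which S100a8 and Csf3r made up most. The other markers did not rise with them. Mmp8 measured 6.62 and 3.48 FPKM in Control, 2.63 and 3.65 FPKM in Model, and 4.69 and 4.37 FPKM in MUS. Cxcr2 measured 0.143 and 0.0430 FPKM in Control, 0.0465 and 0 FPKM in Model and 0 FPKM in both MUS libraries, levels too low to rank. S100a9, Ly6g and Retnlg were listed at 0 in every library. The part of the change in S100a8 and Csf3r in the results below was not tested.

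The adaptors were the most abundant members. In Control, Tyrobp stood first at 535 ± 197 FPKM (SD, n = 2) and Fcer1g next at 331 ± 33.4 FPKM, and their libraries did not overlap. In Model and in MUS this order was reversed, with Fcer1g at 480 ± 125 and 391 ± 46.7 FPKM and Tyrobp at 281 ± 95.9 and 209 ± 22.9 FPKM. Among the receptors of Control cells, Trem2 (118 ± 37.4 FPKM) and Fcgr3 (112 ± 62.9 FPKM) were highest and overlapped each other, followed by Fcgr2b (50.1 ± 20.7 FPKM) and by Fcgr1 (13.1 ± 7.37 FPKM) and Fcgr4 (10.8 ± 6.33 FPKM), which overlapped. In Model, Fcgr1 (154 ± 9.63 FPKM) and Fcgr2b (148 ± 1.48 FPKM) led the receptors and overlapped, ahead of Fcgr3 and Trem2, which also overlapped, and Fcgr4. In MUS the order was Fcgr2b, Fcgr1, Fcgr3, Fcgr4 and Trem2, and no neighbours overlapped. Trem1 and Trem3 were lowest in every group.

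**Figure D1:**
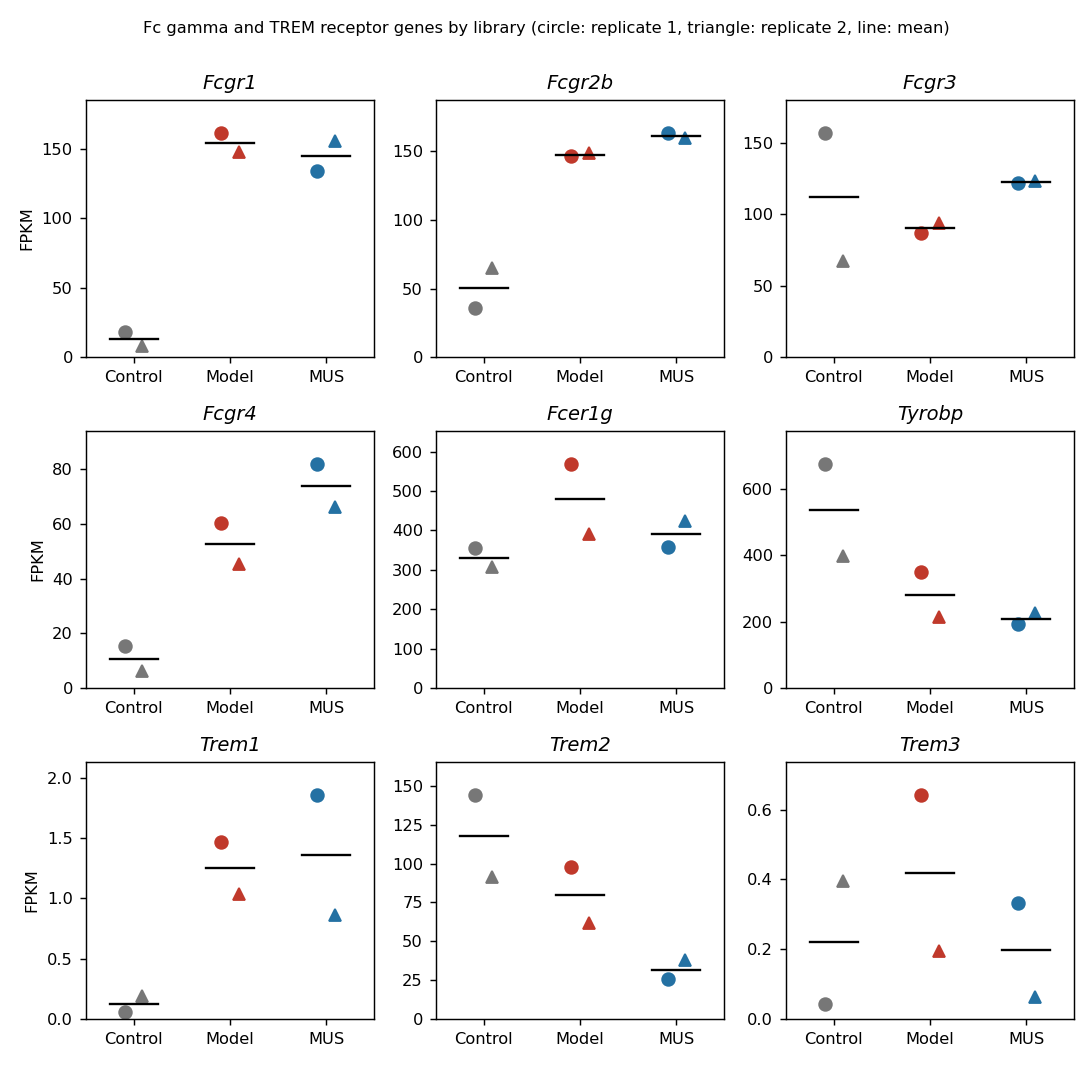
FPKM (vertical axis, linear from 0, a scale per gene) of the 9 genes in Control, Model and MUS, with circles for replicate 1, triangles for replicate 2 and a line at the mean of 2 libraries. Fcgr1, Fcgr2b and Fcgr4 sit higher in all 4 LPS + ATP libraries than in both Control libraries, Tyrobp sits lower, and Trem2 is lowest in the MUS libraries.

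The comparison of Model with Control asks what LPS and ATP did to these transcripts. Of the 7 members with a mean of at least 1 FPKM, Fcgr1, Fcgr2b and Fcgr4 rose and none fell. Genes were called at a limma adjusted p of at most 0.05, over 9794 genes tested, with an absolute log2 fold change over 1, and 15.1% of all genes tested were called in either direction, with 9.5% upwards and 5.56% downwards. Fcgr3, Fcer1g, Tyrobp and Trem2 did not pass. Trem1 and Trem3 fell under the filter and were not tested.

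Fcgr1 encodes the high-affinity receptor for monomeric IgG. It measured 18.3 and 7.87 FPKM in Control against 161 and 147 FPKM in Model, from 1083 and 466 fragments against 5881 and 5910. Every Model library was far above every Control library. The means differed 11.8-fold, with a log2 fold change of 3.57 (SE 0.41) on the log2(FPKM + 1) scale (limma adjusted p = 0.00326), and the difference was 3.07 within replicate 1 and 4.06 within replicate 2. Fcgr1 was called in all 17 alternative settings.

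Fcgr4 encodes an activating receptor for IgG2a and IgG2b. It measured 15.3 and 6.30 FPKM in Control and 60.3 and 45.3 FPKM in Model, with no overlap. The means differed 4.90-fold (log2 fold change 2.29, SE 0.42, limma adjusted p = 0.0134), at 1.91 within replicate 1 and 2.66 within replicate 2. The call was lost in 2 of 17 alternatives, without the filter on low values (limma adjusted p = 0.0949) and without Model replicate 1 (limma adjusted p = 0.0782).

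Fcgr2b, the inhibitory receptor, also rose. It measured 35.5 and 64.7 FPKM in Control and 147 and 149 FPKM in Model. The Model libraries lay close together and above both Control libraries, which themselves differed. The means differed 2.95-fold (log2 fold change 1.60, SE 0.36, limma adjusted p = 0.0271), at 2.02 within replicate 1 and 1.19 within replicate 2. The call was lost in 10 of 17 alternatives, among them 3 other scalings of the libraries and leaving out Control replicate 1 (limma adjusted p = 0.0688), Model replicate 1 (0.0943), Model replicate 2 (0.0690), MUS replicate 1 (0.0797) or MUS replicate 2 (0.0799), with a limma adjusted p between 0.00603 and 0.121 over all 17.

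Fcgr3 encodes the low-affinity activating receptor. It measured 157 and 67.6 FPKM in Control and 86.7 and 93.9 FPKM in Model. The Model libraries lay between both Control libraries, which were themselves far apart. The log2 fold change was -0.19 (95% interval -1.20 to 0.82, limma adjusted p = 0.783). Its sign turned without Control replicate 1 (0.41).

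The fold changes of the adaptors had opposite signs in FPKM, and neither passed. Fcer1g measured 355 and 307 FPKM in Control and 568 and 391 FPKM in Model, without overlap (log2 fold change 0.51, SE 0.36, limma adjusted p = 0.355). Tyrobp measured 674 and 397 FPKM in Control and 348 and 213 FPKM in Model, also without overlap (log2 fold change -0.92, SE 0.42, limma adjusted p = 0.176), with differences of -0.95 and -0.89 within the replicate numbers. Fewer cells of a type and less RNA per cell cannot be told apart in such bulk libraries. Non-overlap is common here: 61.1% of all genes tested did not overlap between Model and Control (32.6% higher and 28.5% lower in Model), against 5 of the 7 members tested, with Fcgr1, Fcgr2b, Fcgr4 and Fcer1g higher and Tyrobp lower.

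Among the TREM genes, Trem2 measured 144 and 91.3 FPKM in Control and 97.7 and 61.8 FPKM in Model, with overlap (log2 fold change -0.56, SE 0.39, limma adjusted p = 0.354). Both replicate numbers gave the same difference of -0.56. Trem1 measured 0.0584 and 0.190 FPKM in Control and 1.47 and 1.03 FPKM in Model, from 4 and 13 fragments against 62 and 48. All Model libraries were above all Control libraries, at a ratio of means of 10.1, but the level stayed near 1 FPKM. Without the filter the log2(FPKM + 1) scale gave 1.00 (limma adjusted p = 0.203), whereas voom on the recovered fragments without the filter, chosen after seeing the data, gave 2.88 (limma adjusted p = 0.0215), where 12.1% of 30192 genes were called. Trem3 had 1 to 9 fragments in each of the 6 libraries, 10 in Control, 12 in Model and 6 in MUS, and no difference was detectable at this depth.

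**Figure D2:**
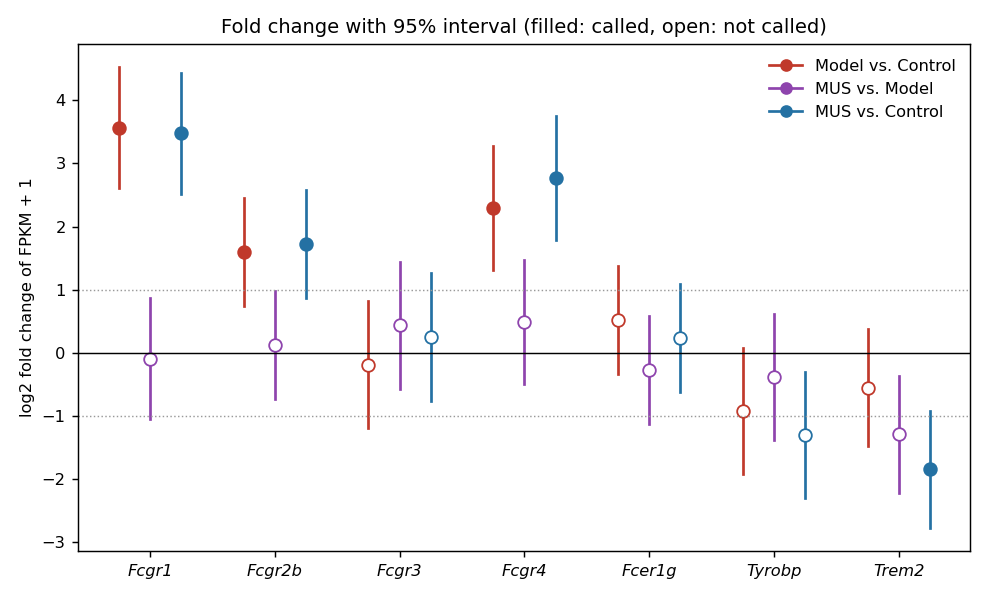
Log2 fold change of FPKM + 1 (vertical axis) of the 7 genes tested in Model vs. Control, MUS vs. Model and MUS vs. Control, with bars for the 95% interval from limma, filled points for called genes and dotted lines at -1 and 1. Fcgr1, Fcgr2b and Fcgr4 are called against Control with and without muscone, Trem2 is called in MUS vs. Control, and no gene is called in MUS vs. Model.

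How the libraries were scaled bears on every difference from Control. The factor that links FPKM to recovered fragments was 1.45 and 1.34 times the fragment total in Control and 0.909 to 0.998 times in Model and MUS. In the deposited FPKM the median of all genes tested was 0.04 in Model vs. Control, on the log2 scale, and it was -0.06 after quantile normalization, -0.46 after rescaling without the mitochondrial and 20 highest genes, -0.40 after scaling to fragment totals and -0.50 with voom. Calls over all genes moved from 930 up and 545 down to 707 and 715, 584 and 1790, 646 and 1554, and 684 and 2050. Relative to the median, Fcgr1 lay 3.14 to 3.64 higher and Fcgr4 1.97 to 2.37 higher under all 5 scalings, and Fcgr2b 0.92 to 1.58 higher. Fcgr2b lost its call after quantile normalization (0.86, limma adjusted p = 0.121), rescaling (0.98, 0.0654) and scaling to fragment totals (1.06, 0.0503), and kept it with voom (1.08, 0.0384). Tyrobp lay 0.96 to 1.79 under the median and was called lower under each of the 4 alternative scalings (limma adjusted p = 0.0137, 0.0242, 0.0388 and 0.0213). Fcer1g changed sign, at -0.52, -0.12, -0.03 and -0.03 in place of 0.51. Trem2 lay 0.60 to 1.31 under the median and was called lower after rescaling (-1.18, limma adjusted p = 0.0457).

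**Figure D3:**
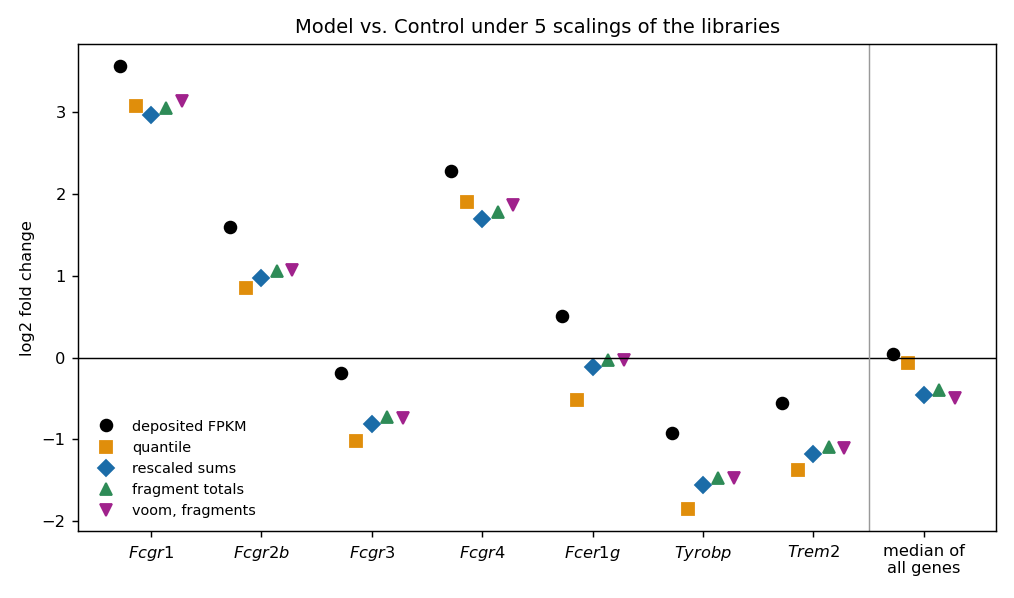
Log2 fold change (vertical axis) of the 7 tested genes between Model and Control and, at the right, the median of all genes tested, under 5 scalings of the libraries given by colour and symbol. The black points, the deposited FPKM, lie above the others for each gene and for the median, Fcgr1 stays between 2.96 and 3.57, and Fcer1g lies on both sides of 0.

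Ratios within a library do not depend on its scale. The ratio of Fcer1g to Tyrobp was 0.526 and 0.775 in Control, against 1.63 and 1.84 in Model, with MUS at 1.85 and 1.88. Tyrobp thus exceeded Fcer1g in both Control libraries and was under it in the other 4. The ratio of Fcgr1 to Fcgr3 was 0.117 and 0.116 in Control, although both genes were over 2-fold higher in replicate 1 than in replicate 2, and it was 1.86 and 1.57 in Model, with MUS at 1.10 and 1.26.

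The make-up of the Fc gamma receptor transcripts differed between Control and the other groups. Fcgr3 made up 69.4% and 46.1% of the summed FPKM of the 4 genes in Control, against 19.1% and 21.6% in Model, with MUS at 24.3% and 24.4%. Fcgr1 made up 8.11% and 5.37% in Control, against 35.4% and 33.9% in Model, with MUS at 26.7% and 30.9%. Set against Fcgr3 alone, Fcgr1 thus held the smaller share in Control and the larger elsewhere. The largest share of the 4 genes was that of Fcgr2b in Model replicate 2 (34.2%), MUS replicate 1 (32.6%) and MUS replicate 2 (31.6%). Only in Model replicate 1 was Fcgr1 the largest, with Fcgr2b at 32.2%. These Fcgr2b shares lay between its 15.7% for Control replicate 1 and its 44.2% for Control replicate 2. The sum itself was 226 and 146 FPKM in Control, 454 and 435 FPKM in Model, and 500 and 505 FPKM in MUS. Unlike the shares, this sum depends on the scale of the library, which differed between Control and the other groups as given above. The activating genes summed to 5.36 and 1.26 times Fcgr2b in Control, 2.10 and 1.93 times in Model, and 2.07 and 2.16 times in MUS, so that the Model and MUS ratios lay between those of both Control libraries. With 2 libraries against 2, an exact permutation test cannot give a p under 0.333, and these ratios are given as values.

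**Figure D4:**
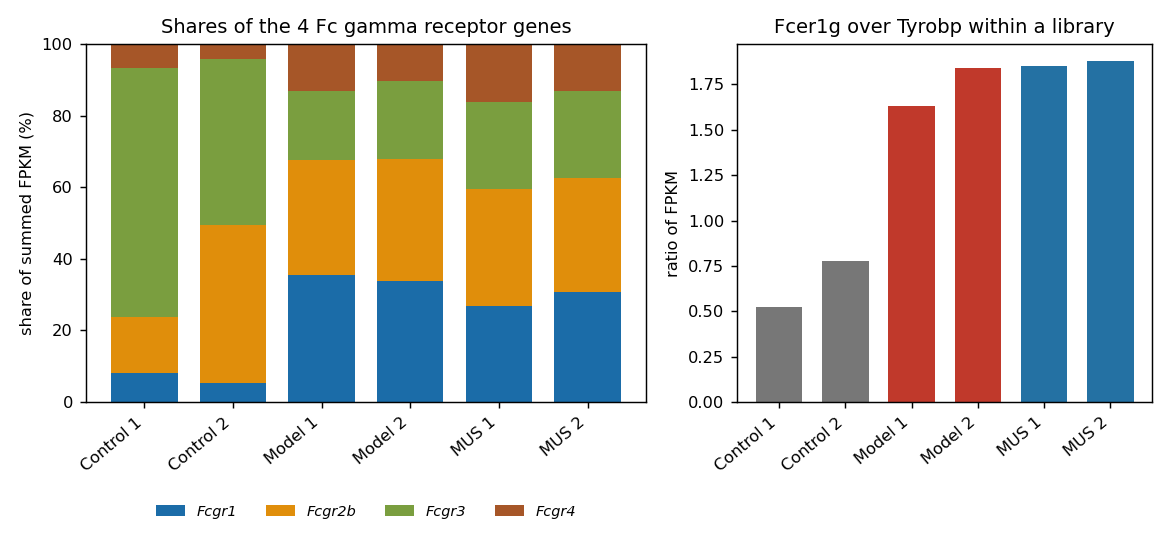
Left, the share (%) of Fcgr1, Fcgr2b, Fcgr3 and Fcgr4 in their summed FPKM in each of the 6 libraries, and right, the ratio of Fcer1g to Tyrobp FPKM in each library. Fcgr3 takes 46.1% or more in Control and at most 24.4% elsewhere, and the ratio of the adaptors is at most 0.775 in Control and at least 1.63 elsewhere.

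The comparison of MUS with Model asks what muscone did on top of LPS and ATP. It shares its Model libraries with the comparison above. Of the 7 members tested, none was called, as was the case for 0% of all genes tested. At an unadjusted p under 0.05, 8.42% of all genes tested passed, and among the members Trem2 did. The groups did not overlap for 4 of the 7 members tested, Fcgr2b, Fcgr3, Fcgr4 and Trem2, against 42.1% of all genes tested.

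Trem2 showed the largest difference among the members. It measured 97.7 and 61.8 FPKM in Model and 25.5 and 38.0 FPKM in MUS, from 6820 and 4734 fragments against 1908 and 3050. Both MUS libraries were below both Model libraries, at a ratio of means of 0.398. The log2 fold change was -1.29 (SE 0.39, unadjusted p = 0.0131, limma adjusted p = 0.463), with a difference of -1.90 within replicate 1 and -0.69 within replicate 2. It was called in none of the 17 alternatives, over which the limma adjusted p ranged from 0.166 to 1. The ratio of Trem2 to Tyrobp, its adaptor, was 0.280 and 0.290 in Model and 0.132 and 0.168 in MUS, after 0.214 and 0.230 in Control.

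The fold changes of the Fc gamma receptors were smaller. Fcgr4 measured 81.8 and 66.1 FPKM in MUS, above both Model libraries (log2 fold change 0.48, 95% interval -0.50 to 1.47, limma adjusted p = 0.816). Fcgr3 measured 122 and 123 FPKM in MUS, also above both (0.44, 95% interval -0.57 to 1.45, limma adjusted p = 0.845). Fcgr2b measured 163 and 159 FPKM in MUS, again above both, by 0.13 (95% interval -0.73 to 0.98, limma adjusted p = 0.959). Fcgr1 measured 134 and 156 FPKM in MUS, on both sides of Model replicate 2 (-0.09, 95% interval -1.05 to 0.87, limma adjusted p = 0.972). After quantile normalization the upper limits were 1.64 for Fcgr3 and 1.62 for Fcgr4.

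The adaptors and the low TREM genes overlapped between MUS and Model. Fcer1g measured 358 and 424 FPKM in MUS (-0.28, 95% interval -1.13 to 0.58, limma adjusted p = 0.891). Tyrobp measured 193 and 225 FPKM in MUS (-0.38, 95% interval -1.38 to 0.62, limma adjusted p = 0.871). Trem1 measured 1.86 and 0.863 FPKM in MUS, from 84 and 42 fragments, on both sides of the Model values. Voom without the filter, where 0.00662% of all genes were called, gave 0.05 for Trem1.

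The comparison of MUS with Control shares libraries with both others and is given for the values only. Fcgr1 (log2 fold change 3.47, limma adjusted p = 0.00314), Fcgr4 (2.77, 0.00593) and Fcgr2b (1.73, 0.0166) were higher in MUS than in Control and Trem2 was lower (-1.85, SE 0.39, 0.0174). These 4 of 7 members stand beside 20.2% of all genes tested, 11.3% upwards and 8.91% downwards. The means differed 11.1-fold for Fcgr1, 6.86-fold for Fcgr4 and 3.22-fold for Fcgr2b. Trem2 was 3.71-fold higher in Control than in MUS, and the difference was -2.45 within replicate 1 and -1.24 within replicate 2. Its call was lost in 4 of 17 alternatives, without the filter (limma adjusted p = 0.0925), without Control replicate 1 (0.0667), without MUS replicate 1 (0.170) and without MUS replicate 2 (0.0701). The calls of Fcgr2b and Fcgr4 were also lost without MUS replicate 1 (0.144 and 0.0718), and that of Fcgr2b without MUS replicate 2 (0.104).

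Tyrobp was lower in both MUS libraries than in both Control libraries, at a ratio of means of 0.391, and did not pass (log2 fold change -1.31, SE 0.42, limma adjusted p = 0.0635). It was called lower in 7 of 17 alternatives, among them the 4 other scalings (limma adjusted p = 0.00746 to 0.0159) and leaving out Control replicate 2 (0.0296). Fcgr3 (0.25, limma adjusted p = 0.695) and Fcer1g (0.24, limma adjusted p = 0.656) did not pass, and the sign of both turned under the 4 other scalings. The groups did not overlap for 6 of the 7 members tested, all but Fcgr3, against 73.3% of all genes tested (39.6% higher and 33.8% lower in MUS). Trem1 measured higher in both MUS libraries than in both Control libraries, at a ratio of means of 11.0, and voom without the filter gave 2.93 (limma adjusted p = 0.0159, with 14.3% of all genes called).

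The genes around these receptors were taken from 5 lists with 68 genes, of which 55 were tested and Pira6 had no row. In Model vs. Control, 6 of the 55 rose and 7 fell, with a median log2 fold change of 0.09 against 0.04 for all genes. These 13 stand beside 15.1% of all genes tested, 9.5% upwards and 5.56% downwards. The 13 calls became 16 after quantile normalization, 20 after rescaling, 19 after scaling to fragment totals and 21 with voom. Of the 22 genes of ITAM signalling, 4 rose, among them Lcp2 (2.46), Lyn (1.96) and Fyn (1.08), and Plcg2 fell by 1.13 on the log2 scale. Lyn and Fyn encode Src-family kinases that phosphorylate ITAMs, Lcp2 encodes the scaffold SLP-76, and Plcg2 encodes a phospholipase that acts downstream of Syk. Lcp2 measured 9.81 and 36.5 FPKM in Control, libraries that were far apart, and 106 and 113 FPKM in Model. Lyn measured 25.1 and 40.9 FPKM in Control and 130 and 125 FPKM in Model (limma adjusted p = 0.0120), while Syk itself was among the 17 genes not called.

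Of the 15 inhibitory receptors and phosphatases, none rose and Cd300a (-2.54), Lair1 (-2.24), Inpp5d (-1.90) and Dok2 (-1.12) fell, with a list median of -0.50. Cd300a and Lair1 encode ITIM receptors. Inpp5d, which encodes SHIP1, the phosphatase recruited by the receptor of Fcgr2b, measured 15.1 and 8.41 FPKM in Control and 1.91 and 2.77 FPKM in Model (limma adjusted p = 0.0132). Fcgr2b and Inpp5d were thus called in opposite directions. Lair1 measured 12.1 and 15.5 FPKM in Control and 1.98 and 2.22 FPKM in Model (limma adjusted p = 0.0020).

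Among 11 tested genes of other receptors that use Fcer1g, Tyrobp or Hcst, Klrk1, which encodes NKG2D, rose (1.21) and Cd300lb (-3.42) and Cd300ld (-1.66) fell. Cd300lb, an activating receptor that pairs with DAP12, measured 96.7 and 66.2 FPKM in Control and 5.76 and 7.43 FPKM in Model (limma adjusted p = 0.00225). This was the largest fall in the 5 lists. Klrk1 went from 0.0304 and 0.0669 FPKM to 1.44 and 1.40 FPKM, and it passed the filter on low values only through the Model and MUS libraries, so that its calls against Control are no free test. Of other Fc receptors, 2 of 8 were tested, and Trim21, the cytosolic antibody receptor, rose from 2.30 and 4.67 FPKM to 31.9 and 25.5 FPKM (2.77, limma adjusted p = 0.00326). None of 5 tested TREM-like genes, TREM ligands and sheddases was called, with the smallest p for Treml2 (1.00, limma adjusted p = 0.0602). Treml2 measured 0.507 and 0.649 FPKM in Control. It too passed the filter only through the Model and MUS libraries, so that its p against Control is no free test.

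**Figure D5:**
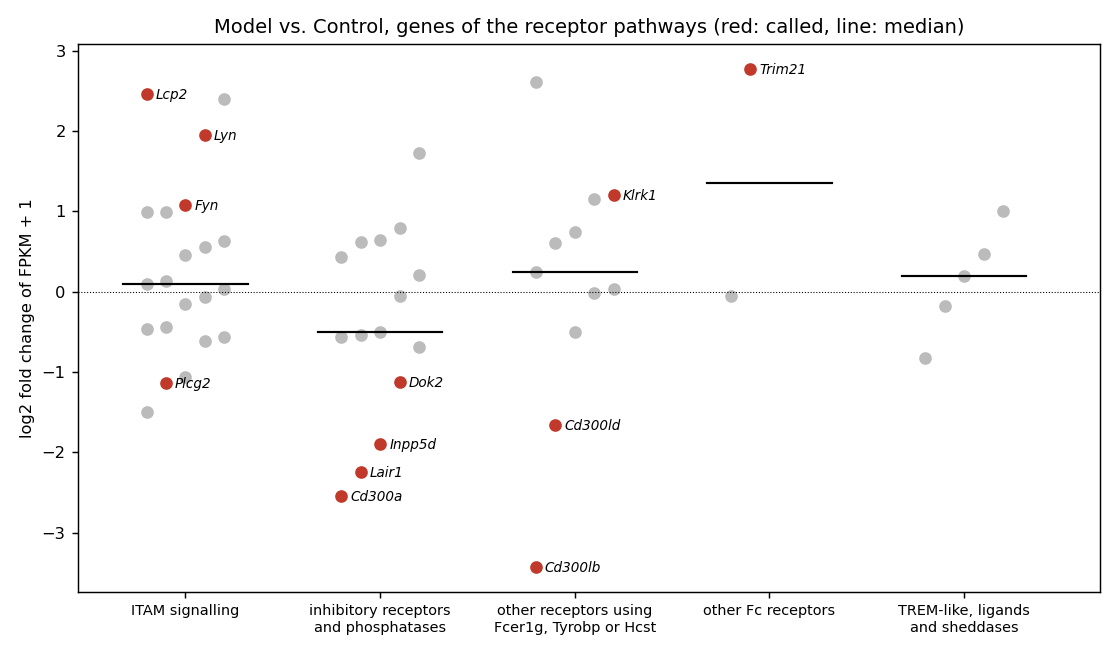
Log2 fold change of FPKM + 1 (vertical axis) in Model vs. Control of 54 of the 55 tested genes in 5 lists, with 1 point per gene, called genes in red with their names and a line at the median of the points in each list. Called genes of ITAM signalling lie mostly above 0 and all 4 called inhibitory genes lie below it. Of all genes tested, 9.5% were called upwards and 5.56% downwards.

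When MUS was set against Model, 0 of the 55 genes were called, beside 0% of all genes tested. An unadjusted p under 0.05 was found for 5 of the 55, beside 8.42% of all genes tested. The smallest p in each list belonged to Plcg2 (0.73, limma adjusted p = 0.554), Dok1 (-1.50, 0.299), Hcst (-0.95, 0.588), Fcgrt (-0.58, 0.785) and Apoe (-0.89, 0.694). Dok1, an adaptor that dampens receptor signalling, measured 18.0 and 13.0 FPKM in Model and 3.78 and 5.89 FPKM in MUS. Apoe, which encodes a ligand of TREM2, measured 2046 and 1138 FPKM in Model and 680 and 992 FPKM in MUS, again without overlap. The groups did not overlap for 42.1% of all genes tested either.

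In MUS vs. Control, 7 of the 55 genes were higher and 8 lower, 15 in all against 20.2% of all genes tested (11.3% upwards and 8.91% downwards). Of the ITAM signalling genes, 5 were called, all higher, among them Malt1 (3.02), Lcp2 (2.60), Lyn (2.39) and Fyn (1.39). The Control libraries were far apart for Malt1 (10.7 and 78.4 FPKM) and Lcp2 (9.81 and 36.5 FPKM). They were nearer for Lyn (25.1 and 40.9 FPKM) and Fyn (5.38 and 3.83 FPKM). Malt1 was not called in Model vs. Control (limma adjusted p = 0.0902). The inhibitory genes called were Cd300a (-2.98), Lair1 (-2.03), Dok2 (-2.01), Inpp5d (-1.78), Dok1 (-1.56) and Sirpa (-1.22), all lower. Cd300lb (-3.41), Cd300ld (-1.03), Trim21 (2.57) and, with the limit given above, Klrk1 (1.34) were called as well. Treml2 (0.83, limma adjusted p = 0.0808), with the same limit, had the smallest p in a list with no call.

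The genes whose pattern over the 6 libraries was most like that of each member were found by the root mean squared difference in log2(FPKM + 1) after centring each gene on its mean. For Fcgr2b they were Axl (0.0591), Gm13571 (0.0758) and Myadm (0.0853), and Axl, a receptor tyrosine kinase that takes part in the uptake of dead cells, measured 24.4 and 48.2 FPKM in Control, 113 and 116 FPKM in Model, and 125 and 125 FPKM in MUS. For Fcgr4 they were Osm (0.0799), Thbs1 (0.261) and Zfp36 (0.300). Osm, the cytokine oncostatin M, measured 5.85 and 2.27 FPKM in Control, 27.4 and 19.3 FPKM in Model, and 35.8 and 32.8 FPKM in MUS, with the same order of the libraries as Fcgr4. Fcgr1 had no gene as near, with Ifitm1 (0.347), Hdc (0.360) and Slamf1 (0.406) nearest and Fcgr4 at rank 21. In Control, Ifitm1 measured 0.280 and 0.200 FPKM, Hdc 0.0274 and 0.0479 FPKM and Slamf1 0 and 0.128 FPKM, against 18.3 and 7.87 FPKM for Fcgr1. These genes passed the filter only through the Model and MUS libraries. The pseudocount shrinks their differences from Control, so their nearness to Fcgr1 depends on this scale.

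For Trem2 the nearest genes were Maf1 (0.0701), Msrb1 (0.104) and Rnh1 (0.118). Msrb1 measured 167 and 90.9 FPKM in Control, 97.8 and 55.9 FPKM in Model, and 25.6 and 39.1 FPKM in MUS, close to Trem2 in level as well. For Tyrobp they were Tpgs1 (0.0870), Echs1 (0.0971) and Fance (0.114), for Fcer1g Suds3 (0.0555), Ube2m (0.0574) and Psmd4 (0.0595), and for Fcgr3 Stard8 (0.0797), Gm11585 (0.155) and Smad7 (0.157). Tyrobp was at rank 203 for Trem2, and Trem2 at rank 987 for Tyrobp.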

How the data were processed

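RNA-seq libraries of 3 groups with 2 libraries each were used. The authors deposited one table of FPKM, made with RSEM per the paper's methods, whereas the labels' processing notes name HISAT2, featureCounts 1.5.0-p3 and GRCm39. Positions in the table were those of GRCm38 for 98.3% of 54409 gene identifiers shared with GENCODE M21 and for all 9 members. In every library 100% of values, multiplied by gene length, were whole multiples of a library's smallest step (tolerance 0.1 step), so fragments were recovered. The 95% intervals are limma's, from the spread between libraries, whereas fragment numbers cover counting error only, and 3 fragments on a gene of 1 kb equal 0.131 to 0.213 FPKM.

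Values were tested with limma 3.58.1 in R 4.3.3 (lmFit, contrasts.fit and eBayes with a trend) on log2(FPKM + 1) of the 9794 genes whose FPKM averaged 1 or more, all 6 libraries in one model, with Benjamini-Hochberg adjustment over all genes tested. The pseudocount understates changes of low genes. The pipeline was tested on simulated data. Files and figures were made with Python 3.11.15, NumPy 2.4.6, pandas 2.3.3 and Matplotlib 3.10.9. Overlap means that the ranges of 2 groups cross.

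The labels give the replicate number as the batch. Differences between replicates correlated between groups at 0.12 (Control and Model), 0.14 (Model and MUS) and -0.09 (Control and MUS) over 9794 genes, and the number was a block in an alternative. Alternatives were another pseudocount, other filters, 4 scalings (voom included), the 2 groups alone, no trend, the block and each library left out. Recovered fragments were tested with voom in alternatives, and no negative binomial model was run.

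Members and lists were chosen with earlier results of these data known. Named were all members, up to 3 called genes per direction and list or else the gene with the smallest p, 3 nearest patterns per member and the markers. Fyn, Dok2 in Model vs. Control, and Lyn, Fyn, Inpp5d, Dok1 and Sirpa in MUS vs. Control, were named after their values were seen, as was Syk. The result for 1 gene of the ITAM signalling list is not reported here and is left out of the plot of the lists.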

Additional observations from a re-analysis of the deposited data

How the results depend on the processing

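With 2 libraries a group the fit had 3 residual degrees of freedom, and calls near the threshold move with the settings. The replicate block gave 3, 0 and 4 called members in Model vs. Control, MUS vs. Model and MUS vs. Control and 15, 0 and 14 called pathway genes, and changed no call of a member. No alternative called a member or a pathway gene in MUS vs. Model. In Model vs. Control, called members went from 3 to 1 without the filter on low values and to 6 with voom without the filter, an alternative chosen after seeing the data, and ranged from 1 to 3 when a library was left out (1 without Model replicate 1). Called pathway genes went from 13 to 3 without the filter, 20 after rescaling, 21 with voom, 23 with voom without the filter and 6 with the 2 groups alone, and ranged from 5 (without Model replicate 1) to 22 (without Control replicate 2), with 7 without MUS replicate 1 and 6 without MUS replicate 2. In MUS vs. Control, called members went from 4 to 1 without the filter and ranged from 1 to 5 with a library left out (1 without MUS replicate 1, 2 without MUS replicate 2). Called pathway genes went from 15 to 6 without the filter and 24 with voom without the filter, and ranged from 2 (without MUS replicate 1) to 21, with 8 without MUS replicate 2. Fcer1g reversed in Model vs. Control after quantile normalization (-0.52), rescaling (-0.12), fragment-total scaling (-0.034) and voom with (-0.035) and without the filter (-0.032), and in MUS vs. Control (-0.69, -0.31, -0.30, -0.30 and -0.30). Fcgr3 reversed in MUS vs. Control under the same settings (-0.52, -0.30, -0.29, -0.29 and -0.28) and, with a library left out, ranged from -0.35 (without Control replicate 2) to 0.85, and in Model vs. Control it ranged from -0.79 to 0.41 (without Control replicate 1). Fcgr1 reversed in MUS vs. Model after quantile normalization (0.016), and ranged from -0.20 to 0.016 (without MUS replicate 1) with a library left out. None of the reversed values was called. The other scalings lowered the fold change of each of the 7 members tested in both comparisons with Control. For fragment-total scaling, and voom on the same totals, this follows by arithmetic from the factor given above. That factor was 1.45 and 1.34 in Control and 0.909 to 0.998 in Model and MUS. Why the factor differed, and the cause under quantile normalization and rescaling, was not tested. Depth limits Trem1 and Trem3, with at most 84 and 9 fragments per library. Model replicate 1, on which several calls against Control depended, stood apart in its number of genes above 0 FPKM (24906), as given above.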
